A study of Mus musculus with 8 samples.

Results

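Atrial and ventricular cardiomyocytes build their contractile apparatus from different members of the same protein families, and 9 genes that distinguish the chambers were followed in ventricles of mouse embryos. The members were named by symbol and matched to the Ensembl identifiers of the count table. The set holds 6 atrial genes (Myl4, Myl7, Sln, Nr2f1, Nr2f2 and Myh6) and 3 ventricular genes (Myl2, Myl3 and Myh7), 9 of the 53465 genes listed. All 9 passed the filter on low counts, which left 15580 genes for testing. Poly(A) RNA was sequenced at E15.5 from 4 Nrg1GOF and 4 wild-type (WT) samples of heart ventricles, and the submitters give 1 ventricle per replicate without saying which. Nrg1GOF embryos carry a Nrg1 transgene at Rosa26 that is switched on by Cre. The series title names the driver Nkx2.5-Cre, whereas the genotype field reads Rosa26Nrg-1;Nkx5.5-Cre. The transgene product, the ErbB receptor ligand neuregulin-1, is thus overproduced wherever the cardiac driver was active, which covers more than 1 cell type. WT embryos are described as controls with no allele named. Litters, strain, age beyond E15.5 and sex were not given, and nothing states that the 4 samples of a genotype came from separate litters, so p values measure the spread between these samples, which may be technical.

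Most of the chamber genes encode alternative forms of a myosin subunit. Myosin of heart muscle consists of heavy chains, which hold the motor, and of essential and regulatory light chains, which wrap around the neck of the motor. In the mouse fetus Myh6 (alpha heavy chain), Myl4 (essential) and Myl7 (regulatory) are the atrial forms, and Myh7 (beta heavy chain), Myl3 and Myl2 are their ventricular counterparts. Early heart tubes express both sets, and chambers restrict them as they mature, so that Myl4 and Myl7 fade from the ventricle while Myh6 replaces Myh7 in the mouse ventricle around birth. Sln encodes sarcolipin, a small membrane protein that inhibits the calcium pump SERCA2, and is a marker of atrial muscle. Nr2f1 and Nr2f2 encode COUP-TF nuclear receptors, and Nr2f2 is needed for atrial identity. Both receptors are also made in other cell types, Nr2f2 in particular in venous endothelium.

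Promoters are shown for the members whose RefSeq start lay within 60 bases of the start of the principal transcript in GENCODE M21, which applied to 4 of the 8 members with a RefSeq window, both atrial (Myl7, Myh6) and ventricular (Myl3, Myh7). Each is given 5′ to 3′ as the 250 bases before the RefSeq start on GRCm38.p6. Capitals mark matches to the MCAT motif (CATTCC on either strand), which TEAD factors bind, and to the CArG box, which serum response factor binds.
Myl7, chr11:5898783-5899032, minus strand: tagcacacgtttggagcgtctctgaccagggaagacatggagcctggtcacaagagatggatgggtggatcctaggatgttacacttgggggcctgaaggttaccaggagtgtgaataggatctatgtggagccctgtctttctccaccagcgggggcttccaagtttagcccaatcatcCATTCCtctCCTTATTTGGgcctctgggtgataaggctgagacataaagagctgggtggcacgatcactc
Myh6, chr14:54966608-54966857, minus strand: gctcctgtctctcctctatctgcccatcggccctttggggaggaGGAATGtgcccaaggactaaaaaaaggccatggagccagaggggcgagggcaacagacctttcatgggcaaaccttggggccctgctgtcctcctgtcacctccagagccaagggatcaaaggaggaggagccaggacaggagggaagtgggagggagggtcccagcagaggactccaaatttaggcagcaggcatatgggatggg
Myl3, chr9:110763428-110763677, plus strand: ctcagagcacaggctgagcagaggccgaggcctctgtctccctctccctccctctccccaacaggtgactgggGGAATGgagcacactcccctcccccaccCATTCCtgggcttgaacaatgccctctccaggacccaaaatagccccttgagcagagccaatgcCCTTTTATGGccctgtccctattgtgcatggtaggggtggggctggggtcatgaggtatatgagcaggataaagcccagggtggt
Myh7, chr14:54994627-54994876, minus strand: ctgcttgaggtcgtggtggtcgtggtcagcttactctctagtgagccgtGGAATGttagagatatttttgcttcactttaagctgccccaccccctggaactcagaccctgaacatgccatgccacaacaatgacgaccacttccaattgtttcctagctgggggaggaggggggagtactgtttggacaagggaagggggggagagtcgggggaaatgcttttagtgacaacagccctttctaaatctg
Motifs were searched on both strands in the whole RefSeq windows of 300 bases, which run 50 bases past the start, and no match marked in capitals overlapped another. The MCAT motif was found in 4 of 4 windows, against 14.7% of all 32817 RefSeq windows of that length. The CArG box was found in Myl7 and Myl3, an atrial and a ventricular member, against 1.63% of all windows. The nuclear receptor half-site AGGTCA, the MEF2 motif (CTA followed after 4 bases by TAG) and the GATA motif in the form AGATAA were found in 0 of 4, against 16.3%, 3.69% and 11.2% of all windows. Other forms of the GATA motif, such as TGATAA, which the printed Myl7 sequence holds, were not searched. The TATA motif TATAAA was found in 1 of 4, that of Myh6, against 13.6% of all windows. A match describes the sequence and is no evidence of binding.

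The genotypes were first checked with the targeted gene. Nrg1 (ENSMUSG00000062991) stood at 61.8 ± 1.90 CPM (the count per 1000000 counts of the scaled library size) in Nrg1GOF and at 4.03 ± 0.65 CPM in WT (SD, n = 4 each), for a log2 difference of 3.94 (standard error, SE, 0.10, adjusted p = 8.26e-08 by the quasi-likelihood test of edgeR). Transgene and endogenous transcripts were not told apart. The libraries other than the fourth of Nrg1GOF held 18754155 to 26785948 counts. That library held 8038569, so that 3 counts stood for 0.375 CPM there and for 0.115 to 0.164 CPM elsewhere. These limits cover counting error only. WT libraries 1 and 2 differed from WT libraries 3 and 4 in several members and in many other genes. Both libraries of the first pair lay above both of the second for 30.6% of all tested genes and below them for 31.0%. Values against each WT pair are therefore given for members and for other named genes whose call such a pair ended. The labels name no batch for that division. They do not say which Nrg1GOF libraries would go with either WT pair, and no comparison within such a batch was made.

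Across the transcriptome 4467 of 15580 genes were called at an adjusted p under 0.05 (28.7%), 2474 of them higher (15.9%) and 1993 lower (12.8%) in Nrg1GOF. Of the 6 atrial members, 3 were called higher (Myl7, Myl4 and Nr2f2), with a median log2 fold change of 0.56. Of the 3 ventricular members, 2 were called lower (Myh7 and Myl3), with a median of -0.31, where all tested genes had a median of -0.012. All 6 atrial members had a positive and all 3 ventricular members a negative log2 fold change, and the 4 members that missed the threshold were Sln, Myh6, Nr2f1 and Myl2. The libraries of the genotypes did not overlap for 5 members, 3 higher and 2 lower, where among all tested genes this held for 30.7%, 16.6% higher and 14.1% lower. In bulk samples fewer cells of a type cannot be told apart from less RNA per cell.

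**Figure D1:**
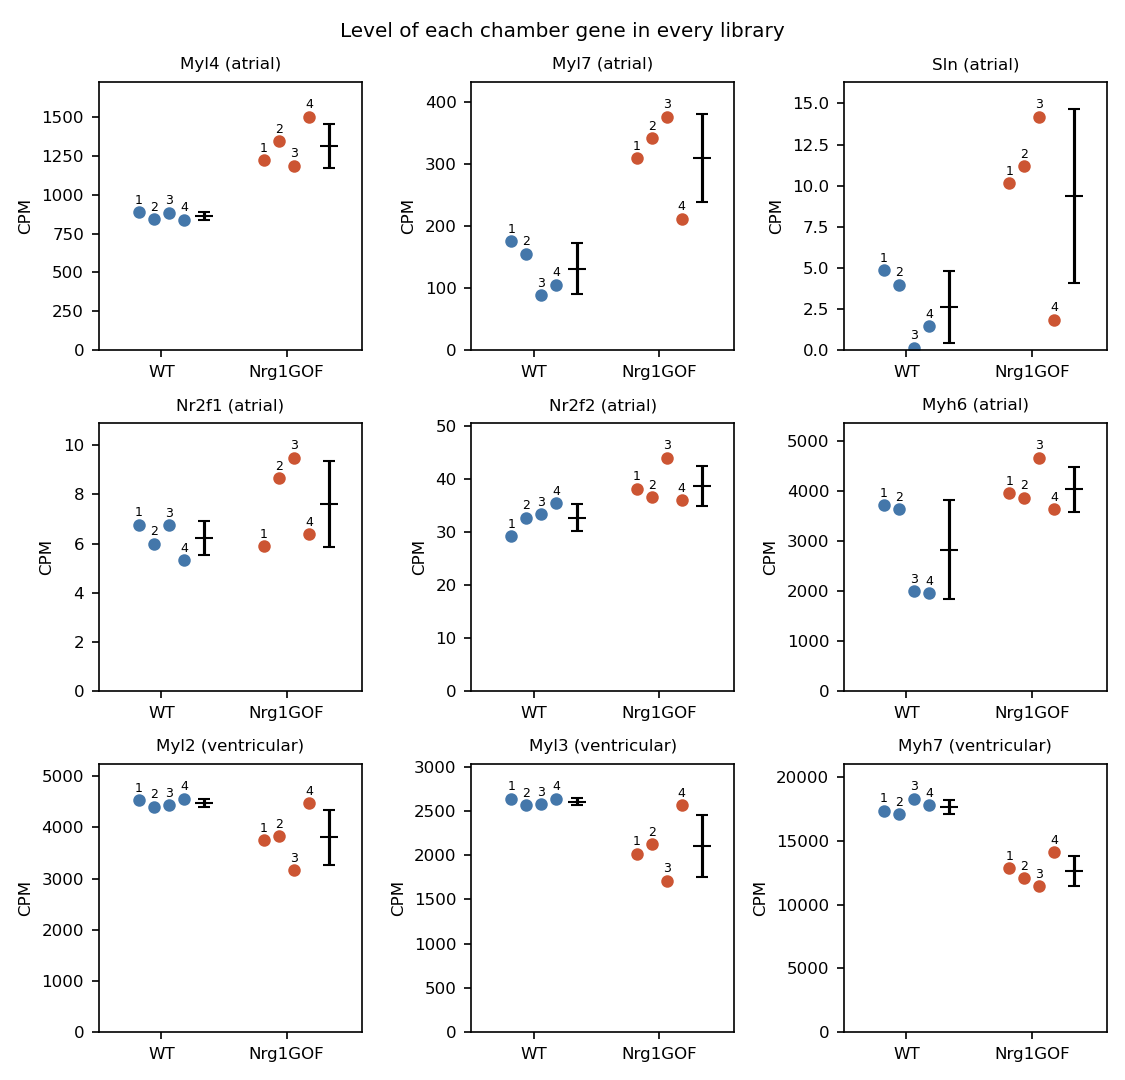
Level of each member in CPM on the scaled library size (vertical axes start at 0), with 1 point per library numbered by replicate, WT in blue and Nrg1GOF in red, and the mean with SD (n = 4) in black. Myl4, Myl7 and Nr2f2 lie above, and Myl3 and Myh7 below, every WT library, and WT libraries 1 and 2 stand apart from 3 and 4 for Myl7, Sln and Myh6.

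The regulatory light chains were compared first. Myl7 (ENSMUSG00000020469, GRCm38 chromosome 11, 5896637 to 5898782, minus strand) stood at 310 CPM, 341 CPM, 377 CPM and 212 CPM in Nrg1GOF libraries 1 to 4 and at 176 CPM, 156 CPM, 88.9 CPM and 106 CPM in WT libraries 1 to 4. The groups did not overlap, with the fourth Nrg1GOF library closest to WT. The means were 310 ± 70.6 CPM and 132 ± 40.8 CPM (SD, n = 4 each), for a log2 difference of 1.24 (adjusted p = 0.00320, SE 0.23). Set against WT libraries 1 and 2 alone, where 18.6% of all genes were called, the log2 difference was 0.90 (adjusted p = 0.0134). Set against WT libraries 3 and 4 alone, where 27.7% were called, it was 1.68 (adjusted p = 0.000792). Myl7 was thus called against either WT pair. Its ventricular counterpart Myl2 (ENSMUSG00000013936, chromosome 5, 122100951 to 122113472, plus strand) stood at 3746 CPM, 3832 CPM, 3161 CPM and 4468 CPM in Nrg1GOF and at 4530 CPM, 4406 CPM, 4427 CPM and 4561 CPM in WT. Nrg1GOF libraries 1 to 3 were lower than all WT libraries, whereas the fourth lay within the WT range. The means were 3802 ± 535 CPM and 4481 ± 76.0 CPM (SD, n = 4 each), and the log2 fold change of -0.24 (SE 0.09, adjusted p = 0.0815) missed the threshold. Without the fourth Nrg1GOF library, where 26.9% of all genes were called, it was -0.31 (adjusted p = 0.0126), a call.

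For the essential light chains the atrial form rose and the ventricular form fell. Myl4 (ENSMUSG00000061086, chromosome 11, 104550663 to 104595753, plus strand) stood at 1220 CPM, 1344 CPM, 1186 CPM and 1500 CPM in Nrg1GOF and at 885 CPM, 840 CPM, 884 CPM and 839 CPM in WT. The groups did not overlap, and the WT libraries were close to each other. The means were 1312 ± 142 CPM and 862 ± 25.98 CPM (SD, n = 4 each), for a log2 difference of 0.61 (adjusted p = 0.000380, SE 0.08). Unlike Myl7, it gave nearly the same value against either WT pair, 0.60 and 0.61. Myl3 (ENSMUSG00000059741, chromosome 9, 110741861 to 110769798, plus strand) stood at 2015 CPM, 2121 CPM, 1712 CPM and 2562 CPM in Nrg1GOF and at 2638 CPM, 2567 CPM, 2575 CPM and 2636 CPM in WT. The groups did not overlap, but the fourth Nrg1GOF library lay just under the lowest WT library. The means were 2103 ± 352 CPM and 2604 ± 38.2 CPM (SD, n = 4 each), for a log2 difference of -0.31 (adjusted p = 0.0499, SE 0.10). This call lay at the threshold and was lost in 14 of 22 alternative analyses (adjusted p from 0.00465 to 0.199 over the 22), among the losses the fits with either WT pair as the sole controls (0.149 and 0.127). Without the fourth Nrg1GOF library the log2 fold change was -0.41 (adjusted p = 0.00465).

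The heavy chains lie side by side on chromosome 14. Myh7 (ENSMUSG00000053093, 54970684 to 54994626, minus strand), the main ventricular motor of the fetus, stood at 12866 CPM, 12070 CPM, 11426 CPM and 14102 CPM in Nrg1GOF and at 17332 CPM, 17048 CPM, 18290 CPM and 17752 CPM in WT. Every Nrg1GOF library was below every WT library. The means were 12616 ± 1153 CPM and 17606 ± 540 CPM (SD, n = 4 each), for a log2 difference of -0.48 (adjusted p = 0.000867, SE 0.07). Myh7 was first or second in counts among all genes in each library. Myh6 (ENSMUSG00000040752, 54941921 to 54966927, minus strand) stood at 3962 CPM, 3865 CPM, 4667 CPM and 3636 CPM in Nrg1GOF and at 3718 CPM, 3639 CPM, 2003 CPM and 1960 CPM in WT. WT libraries 1 and 2 reached the level of the Nrg1GOF libraries, and WT libraries 3 and 4 were far below them. The means were 4032 ± 445 CPM and 2830 ± 981 CPM (SD, n = 4 each), and the log2 fold change of 0.51 (SE 0.21, adjusted p = 0.105) missed the threshold. With WT libraries 1 and 2 as the sole controls it was 0.13 (adjusted p = 0.426), and with WT libraries 3 and 4 it was 1.03 (adjusted p = 0.000326), so the WT pair decided whether Myh6 was called.

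Myh6 and Myh7 also share sequence. Of the 60-base windows of the principal transcripts, the read length used, 1154 were identical between them, which is 19.1% of the windows of Myh6 and 18.7% of those of Myh7. Reads from these windows are divided between the genes by estimated abundance, so the level of each is uncertain to that extent. Windows of the other members had no copy in another gene on the same strand, apart from 0.312% of those of Nr2f2. The sum of both heavy chains, which does not depend on that division, was 16648 ± 824 CPM in Nrg1GOF and 20436 ± 573 CPM in WT (SD, n = 4 each), for a log2 difference of -0.30 (adjusted p = 0.00284, SE 0.05). Summed heavy chain transcript was thus lower in Nrg1GOF, while the alpha form alone had a positive log2 difference.

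**Figure D2:**
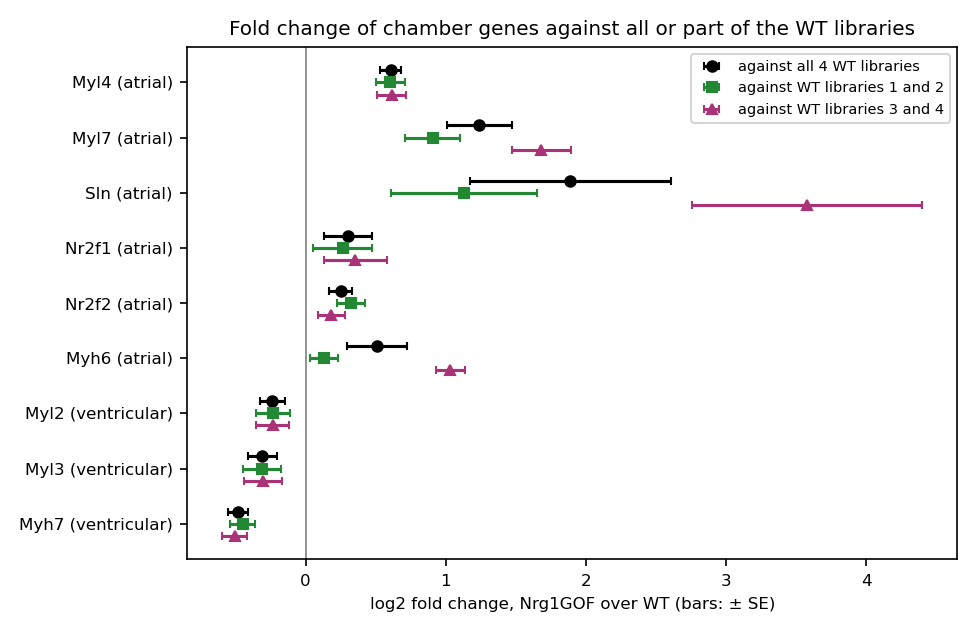
Log2 fold change of each member (horizontal axis, Nrg1GOF over WT) with its SE, against all 4 WT libraries (black circles), WT libraries 1 and 2 (green squares) or WT libraries 3 and 4 (purple triangles). Myl4, Myl2, Myl3 and Myh7 give nearly the same value in each case, whereas Myh6 goes from 0.13 to 1.03 and Sln from 1.13 to 3.58.

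Sarcolipin was rare and uneven. Sln (ENSMUSG00000042045, chromosome 9, 53850164 to 53854560, plus strand) stood at 10.2 CPM, 11.2 CPM, 14.2 CPM and 1.88 CPM in Nrg1GOF and at 4.89 CPM, 3.98 CPM, 0.162 CPM and 1.48 CPM in WT. The fourth Nrg1GOF library lay within the WT range, with 15 counts, and WT library 3 held 4 counts. The means were 9.36 ± 5.27 CPM and 2.63 ± 2.19 CPM (SD, n = 4 each), and the log2 fold change of 1.89 (SE 0.72, adjusted p = 0.0767) missed the threshold despite being the largest of the 9. With WT libraries 1 and 2 as controls it was 1.13 (adjusted p = 0.172), with WT libraries 3 and 4 it was 3.58 (adjusted p = 0.0129), and without the fourth Nrg1GOF library it was 2.19 (adjusted p = 0.0397). It was also called by limma-voom (adjusted p = 0.0497), without a filter on low counts (0.0454) and with all libraries thinned to the smallest total (0.0420), whereas leaving out any single WT library gave no call (0.0527 to 0.164). The call of Sln thus depended on the fourth Nrg1GOF library, on the WT pair and on the method.

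Of the receptors, Nr2f2 (ENSMUSG00000030551, chromosome 7, 70351944 to 70366735, minus strand) stood at 38.3 CPM, 36.6 CPM, 44.1 CPM and 36.0 CPM in Nrg1GOF and at 29.3 CPM, 32.7 CPM, 33.4 CPM and 35.5 CPM in WT. The groups did not overlap, although the lowest Nrg1GOF and the highest WT library nearly touched. The means were 38.7 ± 3.69 CPM and 32.7 ± 2.56 CPM (SD, n = 4 each), for a log2 difference of 0.25 (adjusted p = 0.0467, SE 0.08). The call was lost in 12 of 22 alternatives, with adjusted p from 0.0358 to 0.182 over the 22, among the losses the fits with WT libraries 1 and 2 (0.0515) or 3 and 4 (0.182) as the sole controls. Markers of venous and lymphatic endothelium, which also express Nr2f2, were called higher in 2 and lower in 2 of 8 cases, and their summed level was 428 to 469 CPM in Nrg1GOF and 439 to 502 CPM in WT with overlapping ranges. Nr2f1 (ENSMUSG00000069171, chromosome 13, 78188973 to 78199757, minus strand) stood at 5.90 CPM, 8.67 CPM, 9.49 CPM and 6.38 CPM in Nrg1GOF and at 6.76 CPM, 6.001 CPM, 6.75 CPM and 5.33 CPM in WT. The groups overlapped. The means were 7.61 ± 1.74 CPM and 6.21 ± 0.69 CPM (SD, n = 4 each), for a log2 difference of 0.30 (adjusted p = 0.222, SE 0.17) that missed the threshold in each of the 22 alternatives.

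Other annotated genes overlap 7 of the members, all but Myl7 and Sln, mostly on the opposite strand, and whether counting used strand was not given. The most abundant were Pth1r, which overlaps Myl3, at 24.2 to 32.98 CPM, and the antisense RNA Mhrt, which overlaps Myh7, at 11.001 to 37.9 CPM. Both were small against the member they overlap, and none of the overlapping genes that were tested was called. B130024G19Rik at Nr2f2 (0.73 to 2.71 CPM) and A830082K12Rik at Nr2f1 (1.37 ± 0.57 CPM in Nrg1GOF, SD, n = 4) were nearer to their neighbour in level, the latter most.

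Levels were then compared between genes per length, as CPM per kilobase of the principal transcript. In WT the order was Myl2 (5041 ± 85.5 CPM per kilobase), Myh7 (2826 ± 86.7), Myl3 (2779 ± 40.8), Myl4 (914 ± 27.6), Myh6 (463 ± 160), Myl7 (223 ± 69.2), Nr2f2 (7.75 ± 0.61), Sln (1.99 ± 1.66) and Nr2f1 (1.94 ± 0.22, SD, n = 4 each). Neighbours that did not differ beyond their spread were Myh7 and Myl3, and Sln and Nr2f1. The 3 ventricular genes therefore stood above all atrial genes per length, and Myl4 was the most abundant atrial form. In Nrg1GOF the order was Myl2 (4276 ± 602), Myl3 (2244 ± 376), Myh7 (2025 ± 185), Myl4 (1392 ± 151), Myh6 (660 ± 72.7), Myl7 (526 ± 120), Nr2f2 (9.18 ± 0.87), Sln (7.10 ± 4.00) and Nr2f1 (2.37 ± 0.54). Myl3 and Myh7 had exchanged places within their spread, Myh6 and Myl7 overlapped in spread, and so did Nr2f2 and Sln. The 9 members together took 2.34% to 2.64% of all counts in Nrg1GOF and 2.76% to 2.86% in WT, without overlap.

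The balance of each pair was then expressed as the share of the atrial form per length within a library, a ratio that does not depend on the scaling between libraries. Myl7 made up 11.1%, 11.8%, 15.2% and 6.68% of the regulatory light chain (Myl7 and Myl2) in Nrg1GOF libraries 1 to 4 and 5.52%, 5.06%, 2.94% and 3.38% in WT. Myl4 made up 37.6%, 38.6%, 40.8% and 36.8% of the essential light chain (Myl4 and Myl3) in Nrg1GOF and 25.0%, 24.5%, 25.4% and 24.0% in WT. Myh6 made up 23.9%, 24.6%, 29.4% and 20.8% of the heavy chain in Nrg1GOF and 17.9%, 17.9%, 10.04% and 10.1% in WT. In each pair every Nrg1GOF library had a larger atrial share than every WT library, and the third Nrg1GOF library had the largest and the fourth the smallest share of its group. The log2 ratio of the atrial over the ventricular form was higher in Nrg1GOF by 1.51 for the regulatory light chain, 0.92 for the essential light chain and 1.06 for the heavy chain. Each gave p = 0.0286 in a two-sided exact permutation test over 70 arrangements, the smallest that 4 against 4 allows, and 0.0286 after adjustment over the 3 pairs. The ventricular form stayed the larger in every pair and library. Against WT libraries 1 and 2 alone the differences were 1.12, 0.92 and 0.58, and against WT libraries 3 and 4 alone 1.90, 0.93 and 1.54, each with an exact p of 0.0667, the smallest that 4 against 2 allows. Leaving out any WT library gave 0.0571 for the regulatory light chain, and leaving out Nrg1GOF library 1, 2 or 3 gave 0.0857 for the heavy chain, where 4 against 3 allows 0.0286. For the essential light chain the exact p stayed at 0.0286 whichever library was left out.

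**Figure D3:**
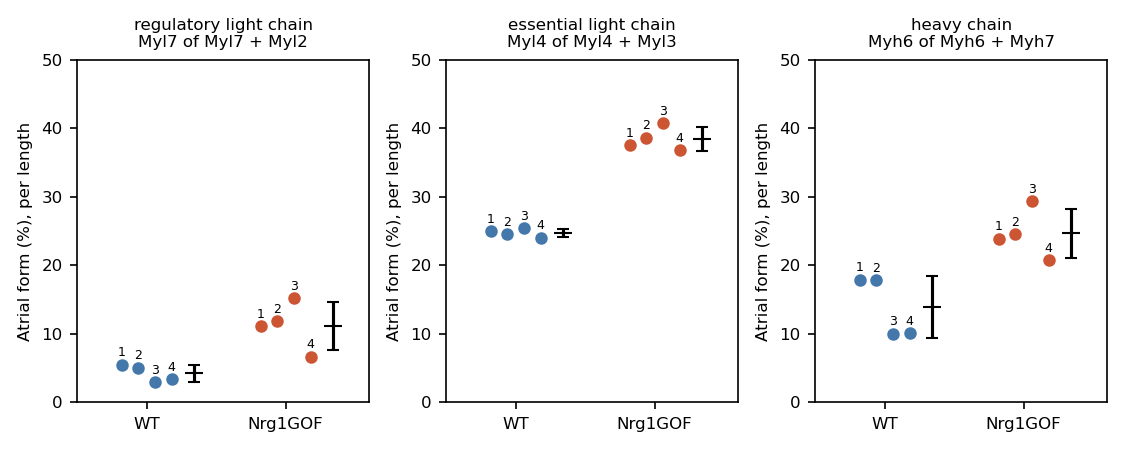
Atrial form as a percentage of both forms per length (vertical axis from 0 to 50%) for the regulatory light chain, the essential light chain and the heavy chain, with 1 point per library numbered by replicate and the mean with SD (n = 4). The essential light chain has the narrowest groups (24.0% to 25.4% in WT, 36.8% to 40.8% in Nrg1GOF), and the heavy chain splits into WT libraries 1 and 2 (17.9%) and 3 and 4 (10.04% and 10.1%).

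The members differed in how the libraries of 1 genotype were ordered. In Nrg1GOF, Myl7, Sln, Nr2f2 and Myh6 were lowest in library 4 and highest in library 3, whereas Myl4, Myl2, Myl3 and Myh7 were lowest in library 3 and highest in library 4. Myl4, an atrial member, thus was ordered like the ventricular members. Among all tested genes, 12.9% showed the first order and 13.9% the second. Of the other atrial genes 6 of 15 had the first order (among them Mybphl and Dkk3) and 2 the second (Nppa and Gja5), and of the other ventricular genes 7 of 12 had the second and 0 the first. These orders were not confined to chamber genes. The first held for 4 of 8 markers of fibroblasts and valve mesenchyme and 4 of 6 of the sinus node and venous pole. The second held for 5 of 6 epicardial markers. In WT, the libraries of the pair 1 and 2 were both above those of the pair 3 and 4 for Myl7, Sln and Myh6, which held for 30.6% of all tested genes and for 10 of the 15 other atrial genes. The same held for 11 of 15 tested genes of other myosin chains and for all 8 fibroblast and all 8 red blood cell markers. The reverse held for 31.0% of all tested genes. The mean of WT libraries 1 and 2 was 1.70 times that of WT libraries 3 and 4 for Myl7, 1.86 times for Myh6 and 5.42 times for Sln, but 1.00 times for Myl4 and 0.994 times for Myl2.

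**Figure D4:**
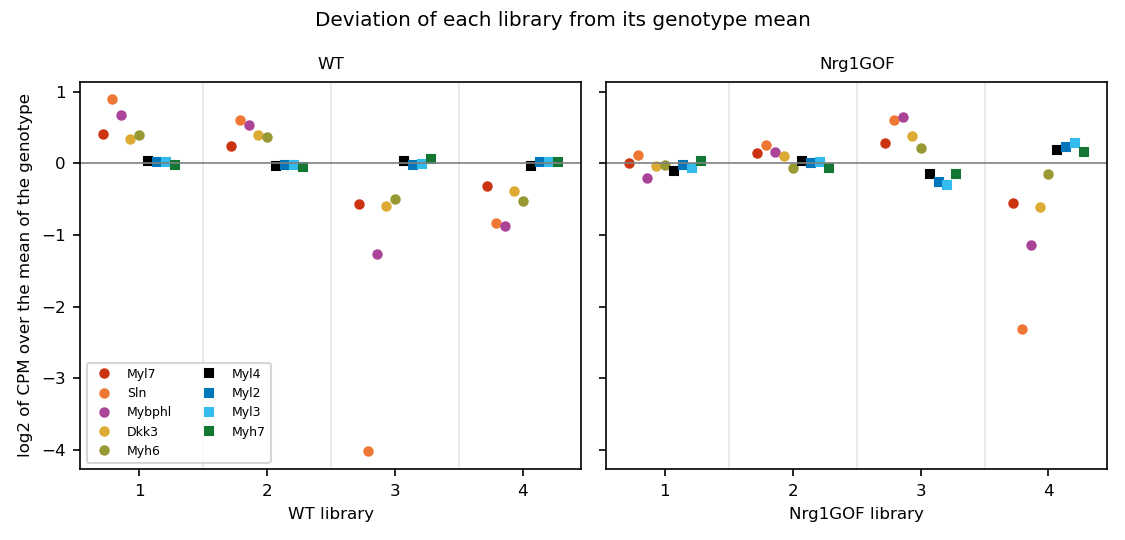
Log2 of the CPM of each library over the mean CPM of its genotype (vertical axis) for the 4 libraries of each genotype (horizontal axis, points shifted sideways by gene). Circles (Myl7, Sln, Mybphl, Dkk3 and Myh6) are low together in WT libraries 3 and 4 and in the fourth Nrg1GOF library, with Myh6 spread less in Nrg1GOF than in WT, whereas squares (Myl4, Myl2, Myl3 and Myh7) stay near 0 in WT and are highest in that Nrg1GOF library.

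Markers of other cell types were read in the same libraries. All 8 markers of fibroblasts and valve mesenchyme were called higher in Nrg1GOF (7 with WT libraries 1 and 2 as the sole controls, without Scx, adjusted p = 0.0878), and all 8 were higher in WT libraries 1 and 2 than in WT libraries 3 and 4. Their summed level was 5047 to 6530 CPM in Nrg1GOF and 2666 to 3573 CPM in WT, and none was at 0. Of 6 tested markers of the sinus node and venous pole, where atrial genes are also expressed, 4 were called higher (Shox2, Tbx3, Hcn4 and Vsnl1) and Tbx18 was lower (not with WT libraries 1 and 2 as the sole controls, adjusted p = 0.0935), with a summed level of 110 to 153 CPM in Nrg1GOF and 107 to 122 CPM in WT. Of 6 epicardial markers 4 were called higher (summed 157 to 201 CPM against 107 to 139 CPM), and 3 with WT libraries 1 and 2 as the sole controls, without Upk3b (adjusted p = 0.104). Of 5 cardiomyocyte markers only Tnnt2 was called, lower (not with WT libraries 1 and 2 as the sole controls, adjusted p = 0.144, where Ttn and Ryr2 were called lower instead), and the summed level was 15264 to 18095 CPM in Nrg1GOF and 18189 to 21089 CPM in WT. The part of these differences in the changes of the members was not tested. Of 8 endocardial and endothelial markers 4 were called higher, and of 6 mural cell markers 2 were called higher and 3 lower. With WT libraries 1 and 2 as the sole controls Npr3 (adjusted p = 0.0687), Pdgfrb (0.0644) and Kcnj8 (0.152, and 0.0812 with the other pair) lost their call, while Egfl7 was called higher and Myh11 lower. Red blood cell markers also divided the WT pairs, with all 8 higher in WT libraries 1 and 2. Their log2 differences between the genotypes (-0.40 to -0.09, smallest adjusted p = 0.360) turned with the WT pair, from -1.003 to -0.46 with libraries 1 and 2 as the sole controls to 0.08 to 0.67 with libraries 3 and 4. Of 8 markers of lung and skeletal muscle, Sftpc and Myod1 had no counts in any library, Epcam, Cdh1, Nkx2-1 and Myf6 were too rare to be tested, Myog was not called and ranged from 0.299 to 0.905 CPM over the 8 libraries, and Ckm, a creatine kinase gene that heart muscle also expresses, was called lower (-0.74, adjusted p = 0.000410).

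The genes closest to Myl7 and Myl2 over the 8 libraries were sought among 10316 protein-coding genes with an average log2 CPM of at least 3. For Myl7 they were Lrrc17 (Pearson r = 0.994), Lum (0.994), which encodes the connective tissue proteoglycan lumican, and Chsy1 (0.993), which encodes a chondroitin synthase. Within the genotypes the coefficients were 0.977, 0.976 and 0.986. Lum stood at 115 CPM, 123 CPM, 155 CPM and 86.9 CPM in Nrg1GOF and at 60.5 CPM, 60.4 CPM, 32.4 CPM and 40.9 CPM in WT, with the same highest and lowest library in each genotype as Myl7. For Myl2 they were Myl3 (0.996), Pptc7 (0.991), which encodes a mitochondrial phosphatase, and Cox4i1 (0.989), a subunit of cytochrome c oxidase. These coefficients describe 8 points that share genotype and library, and were chosen as the highest.

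Other genes of chamber identity were examined as lists. Of 15 other genes of atrial myocardium, 10 were called higher and 1 lower, with a median log2 fold change of 0.51. At that median stood Gja5 (0.51), which is also expressed in trabecular myocardium of the ventricle. The highest were Nppa (2.48), which encodes atrial natriuretic peptide and is shared with the trabeculae of the fetal ventricle, Mybphl (2.09), Dkk3 (0.85) and Bmp10 (0.77), a ligand of trabecular myocardium. Mybphl, an atrial relative of myosin binding protein H, rose from 1.66 ± 1.00 CPM to 6.87 ± 3.19 CPM (SD, n = 4 each, SE 0.47, adjusted p = 0.00799). Dkk3 was at 67.9 ± 18.3 CPM in Nrg1GOF against 38.2 ± 12.8 CPM in WT (adjusted p = 0.0304), but was not called against WT libraries 1 and 2 alone (0.48, adjusted p = 0.144). Pam (0.15, adjusted p = 0.242) and Cacna1d (0.46, adjusted p = 0.198) also lost their call against that pair. Against WT libraries 3 and 4 alone Stard10 was called higher (0.64, adjusted p = 0.0156). The lower gene was Kcna5, an atrial potassium channel, at 12.9 ± 1.47 CPM in Nrg1GOF and 17.8 ± 0.79 CPM in WT, for a log2 difference of -0.45 (adjusted p = 0.00487, SE 0.09). Among the genes that did not pass the test were the atrial potassium channel genes Kcnj3 (0.03) and Kcnj5 (-0.08) and Stard10 (0.40). Calls in both directions were thus found among atrial genes.

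Of 12 other genes of ventricular myocardium, 8 were called lower and 3 higher, with a median of -0.39. The lowest were Kcnd2 (-2.76), a potassium channel, Hey2 (-1.82), a transcriptional repressor of the compact myocardium, Pln (-0.66), which encodes phospholamban, the ventricular inhibitor of SERCA2, and Fhl2 (-0.64). Pln stood at 1349 ± 127 CPM in Nrg1GOF and 2134 ± 132 CPM in WT (SD, n = 4 each, SE 0.08, adjusted p = 0.000271). The higher genes were Irx5 (1.55), Mpped2 (0.51) and Hand1 (0.38), and the gap junction gene Gja1 (0.15) was not called. Irx4, a repressor of atrial genes in the ventricle, was at 70.8 ± 10.3 CPM in Nrg1GOF and 95.5 ± 10.8 CPM in WT, for a log2 difference of -0.44 (adjusted p = 0.0143, SE 0.11), and was named after its value was seen. Its call was lost with WT libraries 1 and 2 as the sole controls (-0.30, adjusted p = 0.107). Hand1 lost its call with either WT pair (adjusted p = 0.101 and 0.0711), although its log2 difference stayed at 0.37 and 0.38. Prdm16, lower with all WT libraries (-0.33), lost its call with WT libraries 3 and 4 (-0.19, adjusted p = 0.107).

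The ventricular members were next set beside sarcomere genes that both chambers use. Of 14 such genes, 7 were called lower and 1 higher, with a median log2 fold change of -0.30, close to the -0.31 of the ventricular members. The lowest of the called genes were Tnni1 (-0.46), the fetal troponin I, Mybpc3 (-0.40), Actn2 (-0.39) and Tnni3 (-0.37), and Casq2, which encodes calsequestrin, was higher (0.35). With WT libraries 1 and 2 as the sole controls Casq2 (0.29, adjusted p = 0.128), Tnni3 (-0.33, adjusted p = 0.0688), Tnnt2 (adjusted p = 0.144) and Tnnc1 (adjusted p = 0.0944, and 0.122 with the other pair) lost their call, while Ttn and Ryr2 were called lower, so that 6 of the 14 were lower. Cardiac actin, Actc1, was not called, with a log2 fold change of 0.001 (adjusted p = 0.992). Among the genes called lower the log2 differences ran from -0.46 to -0.26, with Myl3 (-0.31) inside and Myh7 (-0.48) just outside that range, and a difference between the lists was not tested. In Nrg1GOF, 9 of these 14 genes were lowest in library 3 and highest in library 4, as the ventricular members were.

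Of 18 genes for other muscle and non-muscle myosin chains and for the light chain kinases Mylk3 and Mylk4, 15 were tested, of which 8 were called higher and 1 lower, with a median of 0.29. With WT libraries 1 and 2 as the sole controls 4 were called higher, since Myh1, Myh10 (adjusted p = 0.0599), Myl9 (0.0638) and Myl12a (0.0933) lost their call. Higher were Myh1 (1.48) and Myh8 (1.25), heavy chains of skeletal muscle, Myl1 (1.296), an essential light chain of fast skeletal muscle and the early heart, and Mylk4 (0.86), a myosin light chain kinase. Myl1 stood at 43.6 ± 9.01 CPM in Nrg1GOF and 17.8 ± 3.54 CPM in WT (SD, n = 4 each, SE 0.17, adjusted p = 0.000528), whereas Myh1 rested on 5 to 44 counts per library and had a log2 difference of 0.79 (adjusted p = 0.167) from WT libraries 1 and 2. Myh7b, a slow heavy chain, was lower (-1.48, SE 0.41, adjusted p = 0.0220), but was at 115 to 117 CPM in WT libraries 1 and 2 and 320 CPM in WT libraries 3 and 4, and against the former alone the difference was not called (adjusted p = 0.216).

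Sarcolipin and phospholamban act on the same pump. Of the calcium pump and its small inhibitors 4 genes were tested, 2 of them Sln and Pln described above. Atp2a2, which encodes SERCA2, stood at 1913 ± 76.9 CPM in Nrg1GOF and 3579 ± 157 CPM in WT (SD, n = 4 each), for a log2 difference of -0.90 (adjusted p = 8.56e-06, SE 0.06), and Atp2a3 was not called. The pump and its ventricular inhibitor were thus both lower, while the atrial inhibitor had a positive log2 fold change that missed the threshold.

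Among 16 nuclear receptors, retinoic acid genes and partners, which include Nr2f1 and Nr2f2, 6 were called higher and 3 lower, with a median of 0.005. The highest were Cyp26a1 (2.12), Rxrg (1.47), Cyp26b1 (0.77) and Rarg (0.51), and the Cyp26 genes encode enzymes that degrade retinoic acid. Cyp26a1 rested on 1 to 36 counts per library. Lower were Zfpm2 (-0.44), which encodes the GATA partner FOG2, Rxrb (-0.20) and Rxra (-0.19). With WT libraries 1 and 2 as the sole controls Cyp26a1, Cyp26b1 and Rarg lost their call (adjusted p = 0.0904, 0.114 and 0.149). Rxra and Rxrb lost theirs with either WT pair. Their log2 differences were -0.21 and -0.16 with libraries 1 and 2 (adjusted p = 0.0735 and 0.222). With libraries 3 and 4 they were -0.16 and -0.24 (adjusted p = 0.109 and 0.0641). Rarb, higher with all WT libraries (0.29), lost its call with WT libraries 3 and 4 (0.21, adjusted p = 0.143).

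**Figure D5:**
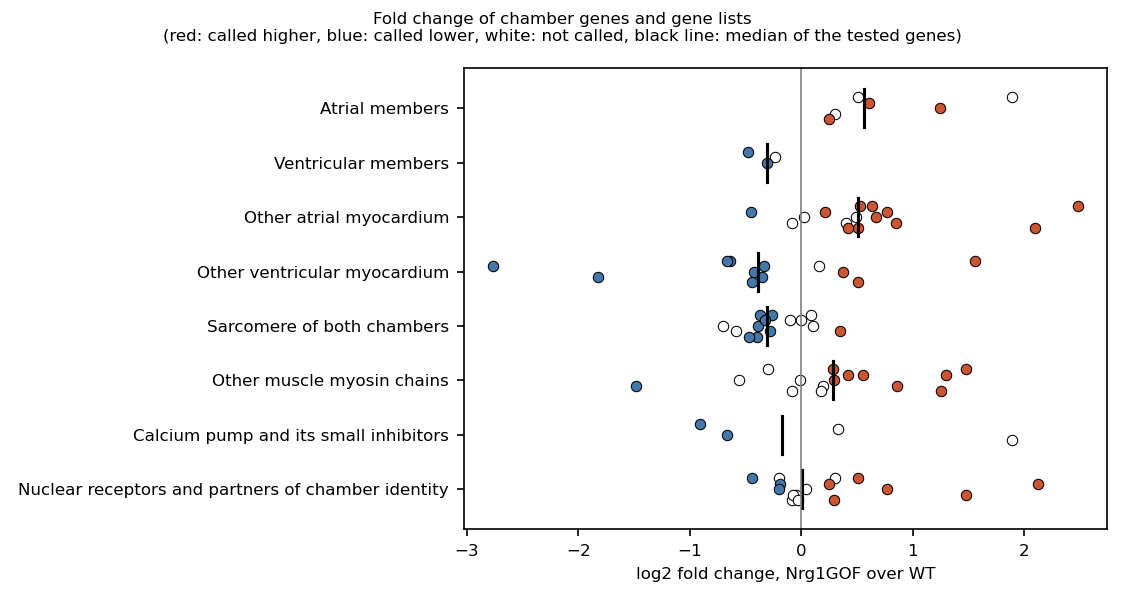
Log2 fold change (horizontal axis, Nrg1GOF over WT) of every tested gene of the members and lists (rows), filled red where called higher, blue where called lower and white where not called, with the median of each row as a black line. Medians are 0.56 for atrial members and 0.51 for other atrial genes, against -0.31 for ventricular members, -0.39 for other ventricular genes and -0.30 for sarcomere genes of both chambers.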

How the data were processed

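RNA-seq expected counts per gene were deposited by the authors, made with RSEM (version 1.3.1) after cutadapt, per the submitters' processing notes, on GRCm38 with Ensembl release 91 from single reads of 60 bases of directional poly(A) libraries. The aligner and strand setting are not given in the sources used here. Where a read fits several genes, RSEM splits it by estimated abundance, and 8.42% to 13.2% of a library's values were not whole. The values are not scaled for depth or length.

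Symbols were matched for 53360 of 53465 genes and transcript structure was taken from GENCODE M21 (GRCm38), a later annotation. Counts were rounded, filtered with filterByExpr, scaled by TMM and tested with the quasi-likelihood F-test of edgeR (version 4.0.16, R 4.3.3), genotype as the sole term, 4 Nrg1GOF against 4 WT libraries. Adjustment followed Benjamini-Hochberg over 15580 genes (called under 0.05). CPM refer to the TMM-scaled size. SE is the absolute log2 fold change over the square root of F. Tests were two-sided, and the fit was tested on simulated data.

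The members and gene lists were chosen with earlier results of these data known. Named genes were the 9 members, Nrg1, genes overlapping a member, up to 4 called genes with the highest and 4 with the lowest fold change per list, list genes not called where a count is described, and the 3 genes closest to Myl7 and to Myl2. Genes whose call changed with a WT pair were named as well. Counts of library orders were chosen after seeing the data. Alternatives were DESeq2 (1.42.0), limma-voom (3.58.1), the edgeR likelihood ratio test, other scalings and filters, unrounded or thinned counts, a replicate block, each WT pair alone, WT pairs summed and leaving out each library. Sequences are RefSeq windows (GRCm38.p6). No protein sequence was used here. The value of 1 listed gene is not reported here.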

Additional observations from a re-analysis of the deposited data

Results flagged for a closer look

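Of 88 groups of 4 values tested for a library far from the others (Dixon's test, for which chance flags about 1 in 20 groups), 1 was flagged. The total of the fourth Nrg1GOF library, 8038569 counts, lay far below the 20577988 to 22547707 counts of the other Nrg1GOF libraries, with a gap of 0.864 of the range. The same library was the lowest of its genotype for Myl7, Sln, Nr2f2 and Myh6 and the highest for Myl4, Myl2, Myl3 and Myh7. After all libraries were thinned to its total, Myl7, Myl4 and Myh7 were called as before, Nr2f2 (adjusted p = 0.0997) and Myl3 (0.0567) lost their call and Sln (0.0420) gained one. The log2 fold changes were then 0.28 for Nr2f2, -0.30 for Myl3 and 1.96 for Sln, against 0.25, -0.31 and 1.89 without thinning.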

How the results depend on the processing

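Over 22 alternatives, Myl4 (log2 fold change 0.55 to 0.66), Myl7 (0.90 to 1.68) and Myh7 (-0.53 to -0.43) kept their call and Nr2f1 was never called. No member changed direction. Of 2310 recomputed values in all, 2068 kept direction and side of the threshold or stayed within 1.5 times the count, 117 moved, 116 weakened, 9 strengthened and 0 reversed. Nr2f2 lost its call in 12 and Myl3 in 14 alternatives. Sln gained a call in 5, Myh6 and Myl2 in 2 each. The causes were not tested.

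Of the ventricular members, 1 in place of 2 was called lower against either WT pair alone, with the WT pairs summed, with a minimum of 1 CPM in 4 libraries, with library total scaling, with relative log expression scaling and after thinning. It was 1 to 3 when a library was left out (3 without the fourth Nrg1GOF library), and atrial members were then called in 2 to 4 cases. The genes called in all were 2464 (1548 higher, 916 lower) with the WT pairs summed, 1308 lower against WT libraries 1 and 2 alone, and 3239 to 4261 (1869 to 2426 higher, 1370 to 1868 lower) when a library was left out. Of the listed genes 49 were called (28 higher, 21 lower), 32 (15 higher) against WT libraries 1 and 2 alone, 28 (16 higher, 12 lower) with the WT pairs summed and 33 to 48 (18 to 28 higher, 15 to 20 lower) when a library was left out. With library total scaling 65.4% in place of 55.4% of all calls were higher, and the median of all genes shifted by 0.044.

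The differences in log2 ratio between atrial and ventricular forms ranged, when a library was left out, from 1.32 to 1.76 for the regulatory light chain, from 0.88 to 0.96 for the essential light chain and from 0.90 to 1.22 for the heavy chain. The exact permutation p was 0.0571 for the regulatory light chain without any 1 WT library and 0.0857 for the heavy chain without Nrg1GOF library 1, 2 or 3. Against WT libraries 1 and 2 alone the differences in log2 ratio were 1.12, 0.92 and 0.58 and against WT libraries 3 and 4 alone 1.90, 0.93 and 1.54, where 0.0667 is the smallest exact p possible. With the replicate number as a replicate block the differences were 1.51, 0.92 and 1.06 with an exact p of 0.125, the smallest 4 pairs allow. The numbers were not taken to pair the samples. Libraries with the same number had correlations of deviations of 0.129, 0.049, 0.199 and 0.067, and those with different numbers had -0.263 to 0.187. Nrg1GOF libraries 1 and 2 had positive values with WT libraries 1 and 2 and negative values with WT libraries 3 and 4. For Nrg1GOF library 3 this was reversed. A fit with that division as a term over both genotypes was not made. The replicate block left 4524 genes called (2407 higher, 2117 lower) and changed no call of a member. Sln was measured on 4 to 332 counts per library.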
